A study of Macaca mulatta with 15 samples.

Results

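The genes described here are the NF-kB subunits NFKB1, NFKB2, REL, RELA and RELB, the inhibitors NFKBIA and NFKBIE, and the feedback genes TNFAIP3, TRAF1 and BIRC3. They were chosen by symbol from the deposited count table. Of the 10 symbols listed, 9 matched a row among 34884 genes, and NFKB2 was not analysed here. The 9 were NFKB1 (ENSMMUG00000003736), REL (ENSMMUG00000010834), RELA (ENSMMUG00000007418), RELB (ENSMMUG00000014153), NFKBIA (ENSMMUG00000020374), NFKBIE (ENSMMUG00000022689), TNFAIP3 (ENSMMUG00000008869), TRAF1 (ENSMMUG00000041498) and BIRC3 (ENSMMUG00000058594). All 9 passed the filter on low counts that left 14814 genes for testing.

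The study followed T cells from the blood of rhesus macaques given 2-hydroxypropyl-beta-cyclodextrin, a ring-shaped sugar molecule known to take up cholesterol. The 15 libraries come from 2 animals, named RhM22 and RhDBCb, both described as healthy in the labels, and each animal gave 1 draw after the start of dosing and 1 before it. The drug was Kleptose HBP, a parenteral grade of that compound dissolved at 15% by weight, injected under the skin at a daily 1 ml/kg over at most 120 days. From each draw CD8 memory, CD8 naive, CD4 memory and CD4 naive T cells were profiled. For RhDBCb, CD8 naive cells from the later draw were not analysed here. All groups were thus untreated or treated cells of the same 2 animals, with no animal given vehicle, so treatment and elapsed time cannot be told apart. A difference between the animals likewise rests on 1 draw per animal and time.

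NF-kB is a family of transcription factors that act as pairs of subunits. In resting T cells the inhibitors NFKBIA (IkB-alpha) and NFKBIE (IkB-epsilon) hold these pairs in the cytoplasm, and signals from the antigen receptor or from TNF receptors lead an IkB kinase to mark the inhibitors for destruction. NFKB1, the p105 precursor of p50, pairs with RELA (p65) or REL (c-Rel) in this canonical route, while RELB partners mainly p52, the product of NFKB2, in the slower non-canonical route. Several genes that NF-kB switches on act back on it: NFKBIA and NFKBIE rebind the subunits, and TNFAIP3 (A20) is a ubiquitin-editing enzyme that shuts signalling down. TRAF1 is an adaptor at TNF receptors and BIRC3 (cIAP2) a ubiquitin ligase that blocks cell death.

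Each library held between 44414963 and 71787211 counts over 13525 to 15445 genes. Levels are CPM, counts scaled to a library of the same nominal size, and draws list their libraries in the order CD8 memory, CD8 naive, CD4 memory, CD4 naive. The lineage labels held: CD8A, a chain of the CD8 co-receptor, was between 665 and 861 CPM in all 7 CD8 libraries and never above 3.93 CPM in the 8 CD4 libraries. S100A4, which is high in memory T cells, lay at 312 to 2213 CPM in memory libraries and below that range in all naive ones. LEF1, a factor of naive cells, lay at 72.1 to 517 CPM in memory and 638 to 1021 CPM in naive libraries. The 4 before libraries of RhDBCb stood apart. Their summed immediate early genes (16 genes such as FOS and JUN) lay at 12639 to 33206 CPM, against 6631 to 11771 CPM in the other 11. Their platelet markers (10 genes) summed to 3.71 to 5.44 CPM, against 14.5 to 100.3 CPM elsewhere. Results that rest on these 4 libraries are given below with and without them where that can be done.

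**Figure D1:**
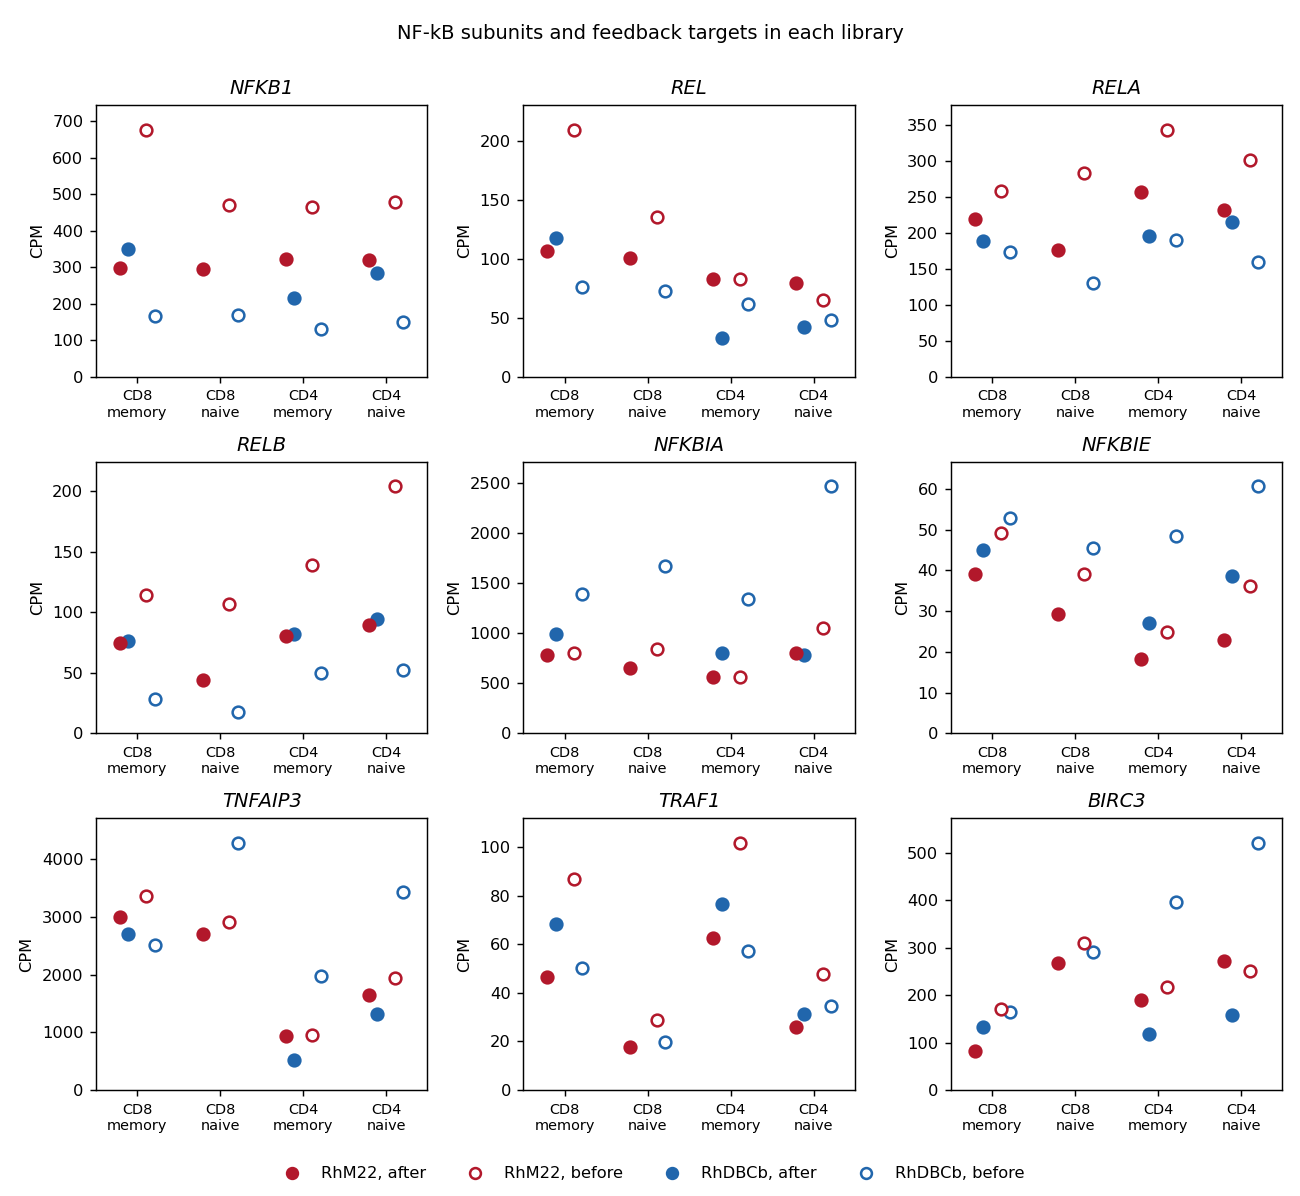
Level of each member in CPM (y axes, from 0) in the 15 libraries, grouped by T cell subset. Red is RhM22 and blue RhDBCb, filled circles are after and open circles before treatment. NFKB1, RELA and RELB were highest in the open red circles of RhM22 before treatment, and NFKBIA was highest in the open blue ones of RhDBCb before treatment.

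The first comparison asked whether the members changed over treatment in both animals and all subsets together. All 9 had a log2 fold change, after over before, below 0, with a median of -0.33 against 0.01 over all genes tested. None was called, where a call is an adjusted p under 0.05 in edgeR's quasi-likelihood test, and the same rule called 0.00675% of all genes. At an unadjusted p under 0.05 edgeR had 4 of the 9 members, NFKBIA, NFKBIE, TNFAIP3 and BIRC3, against 10.3% of all genes. DESeq2 called 1 member, NFKBIE (adjusted p = 0.0255), and limma on log2(FPKM + 1) called 0. Each p-value here measures the spread between these libraries, which share 4 draws.

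Among the subunits the values over both animals were small. NFKB1 averaged 298 ± 42.7 CPM after (SD, n = 7) and 339 ± 209 CPM before treatment (n = 8), a log2 fold change of -0.01 (SE 0.24). RELB averaged 77.2 ± 16.4 CPM after and 89.1 ± 63.5 CPM before, a log2 fold change of -0.03 (SE 0.31). For both genes the spread of the before libraries was several times that of the after libraries, and the sign was not stable: it was above 0 without any single one of the 8 libraries of RhM22. Leaving out 1 library at a time gave NFKB1 -0.16 to 0.12 and RELB -0.20 to 0.13. REL and RELA lay at -0.22 (SE 0.16) and -0.13 (SE 0.13).

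The inhibitors and feedback genes lay further from 0. NFKBIA ran from 563 to 997 CPM with a median of 787 CPM after, and from 567 to 2469.5 CPM with a median of 1202 CPM before treatment. Its level was lower after treatment in 7 of 7 pairs, and the edgeR estimate was -0.54 on the log2 scale with SE 0.16 (adjusted p = 0.341). The 2 ranges overlapped, since RhM22 gave values near the after libraries at both times. NFKBIE, also lower in 7 of 7 pairs, ran from 18.1 to 45.0 CPM with a median of 29.3 CPM after, and from 24.9 to 60.6 CPM with a median of 47.0 CPM before (log2 fold change -0.49, SE 0.13, adjusted p = 0.311). BIRC3 ran from 81.8 to 271 CPM with a median of 157 CPM after and from 164 to 522 CPM with a median of 271 CPM before, and was lower in 6 of 7 pairs. Its log2 fold change was -0.68 (SE 0.21, adjusted p = 0.361). TNFAIP3 (-0.57, SE 0.22) and TRAF1 (-0.33, SE 0.17) were lower in 6 and 5 of 7 pairs. Of the 7 NFKBIA pairs, 2 lay at -0.01 and -0.02. Leaving out RhDBCb's 4 before libraries, which leaves the pairs of RhM22, brought NFKBIA to -0.21, TNFAIP3 to -0.14, BIRC3 to -0.30 and NFKBIE to -0.46. In bulk RNA a smaller share of cells that make a transcript and less of it per cell cannot be told apart.

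In single subsets edgeR called none of the 9 members in any of the 4, where it also called 0% of all genes. DESeq2 and limma called 0 members in each. At an unadjusted p under 0.05 edgeR had 2 members in CD4 naive cells, NFKBIA (log2 fold change -1.0, SE 0.31) and NFKBIE (-0.65, SE 0.27), against 4.07% of genes. CD4 memory cells gave 3, NFKBIE (-0.66, SE 0.27), TNFAIP3 (-0.98, SE 0.41) and BIRC3 (-0.96, SE 0.42), against 1.55% of genes. By pair, these 3 lay at -0.84, -1.92 and -1.75 in RhDBCb and at -0.45, -0.04 and -0.20 in RhM22. The CD4 naive pairs of NFKBIA lay at -1.66 in RhDBCb and -0.40 in RhM22. Those of NFKBIE lay at -0.65 in RhDBCb and -0.66 in RhM22. There were 0 in CD8 naive cells, against 0.999% of genes, and 0 in CD8 memory cells, against 1.46%. The only CD8 naive after library was RhM22's, but the fit also used RhDBCb's CD8 naive before library. Its CD8 naive values thus differ from the RhM22 pair, as for RELB, at -0.73 in the fit and -1.28 in the pair. The members' median was -0.50 in CD4 naive, -0.40 in CD4 memory, -0.45 in CD8 naive and -0.15 in CD8 memory cells. Whether the subsets differ in this change was not tested.

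The change over treatment differed between the 2 animals for several members. The change in RhM22 minus the change in RhDBCb was called for 4 of 9 members, all lower, where the same test called 4.58% of all genes, 2.77% as lower. They were the subunits RELB (log2 difference -2.05, SE 0.24, edgeR adjusted p = 0.00129), NFKB1 (-1.60, SE 0.20, 0.00156) and RELA (-0.66, SE 0.17, 0.0407) and the adaptor TRAF1 (-1.02, SE 0.19, 0.0119). DESeq2 called 6, these 4 and, as higher, NFKBIA and TNFAIP3, and limma called 4. The fits that left out 1 library called 3 to 6. Without any 1 library NFKB1, RELB and TRAF1 passed in 15 of 15 fits. RELA passed in 3, those that left out RhDBCb's CD8 memory before or CD4 memory after library, or RhM22's CD8 memory before library. Leaving out any of the remaining 12 libraries ended its call, with the value between -0.69 and -0.55 and the adjusted p between 0.056 and 0.179 without one.

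RELB, the non-canonical subunit, showed the pattern in every pair. In RhM22 it had 74.6, 43.8, 80.2 and 89.1 CPM after treatment, against 114, 107, 139 and 204 CPM before. In RhDBCb its CD8 memory, CD4 memory and CD4 naive cells had 76.0, 81.9 and 94.8 CPM after treatment, against 28.7, 17.9, 50.0 and 52.5 CPM before in the 4 subsets. After and before did not overlap in either animal, and the after libraries of both animals lay between their before libraries except for the CD8 naive library of RhM22. RELB rose in RhDBCb by 1.07 (SE 0.18, edgeR adjusted p = 0.00427) and was higher in 3 of 3 pairs. In RhM22 its value was -0.98 (SE 0.17, edgeR adjusted p = 0.0649) and 4 of 4 pairs were lower. DESeq2 (-0.99, adjusted p = 1.9e-05) and limma (-0.67, adjusted p = 0.0361) called this fall, as did edgeR without the filter on low counts (-0.98, adjusted p = 0.0373).

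NFKB1, the p50 precursor, behaved alike. RhM22 had 297, 295, 323 and 319.7 CPM after treatment, against 677, 470.4, 466 and 479 CPM before. RhDBCb had 351, 216 and 285 CPM after treatment in CD8 memory, CD4 memory and CD4 naive cells, against 166, 171, 129.9 and 149 CPM before. The draws before treatment were far apart, 466 to 677 CPM in RhM22 and 129.9 to 171 CPM in RhDBCb, while those after treatment overlapped. NFKB1 rose in RhDBCb by 0.86 (SE 0.15, edgeR adjusted p = 0.00548) in 3 of 3 pairs. It had a value of -0.74 (SE 0.14, 0.0924) in RhM22, lower in 4 of 4 pairs. DESeq2 called the fall in RhM22 (-0.74, adjusted p = 0.000103).

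RELA, the main activating partner of p50, had values of the same sign as NFKB1 and RELB in each animal, nearer to 0. Its values in RhM22 were 220.0, 176, 257 and 232 CPM after treatment, against 259, 284, 344 and 301 CPM before. In RhDBCb they were 189, 196 and 216 CPM after treatment, against 173, 131, 191 and 159.6 CPM before. After and before did not overlap in RhM22 and overlapped in RhDBCb, and edgeR called neither animal's own change (-0.43, SE 0.11, adjusted p = 0.29 in RhM22 and 0.23, SE 0.13, 0.278 in RhDBCb). DESeq2 called it in RhM22 (-0.44, adjusted p = 0.0212). REL, the subunit tied to lymphocyte activation, did not follow them. It had 107, 101, 82.7 and 79.6 CPM after treatment in RhM22, against 209.9, 136, 83.4 and 65.6 CPM before. RhDBCb had 118, 32.7 and 41.9 CPM after treatment, against 76.5, 72.8, 61.9 and 48.3 CPM before. The highest REL level of each animal was in CD8 memory cells, before treatment in RhM22 and after it in RhDBCb. The difference between the animals' changes in REL was -0.13 (SE 0.33, adjusted p = 0.885).

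**Figure D2:**
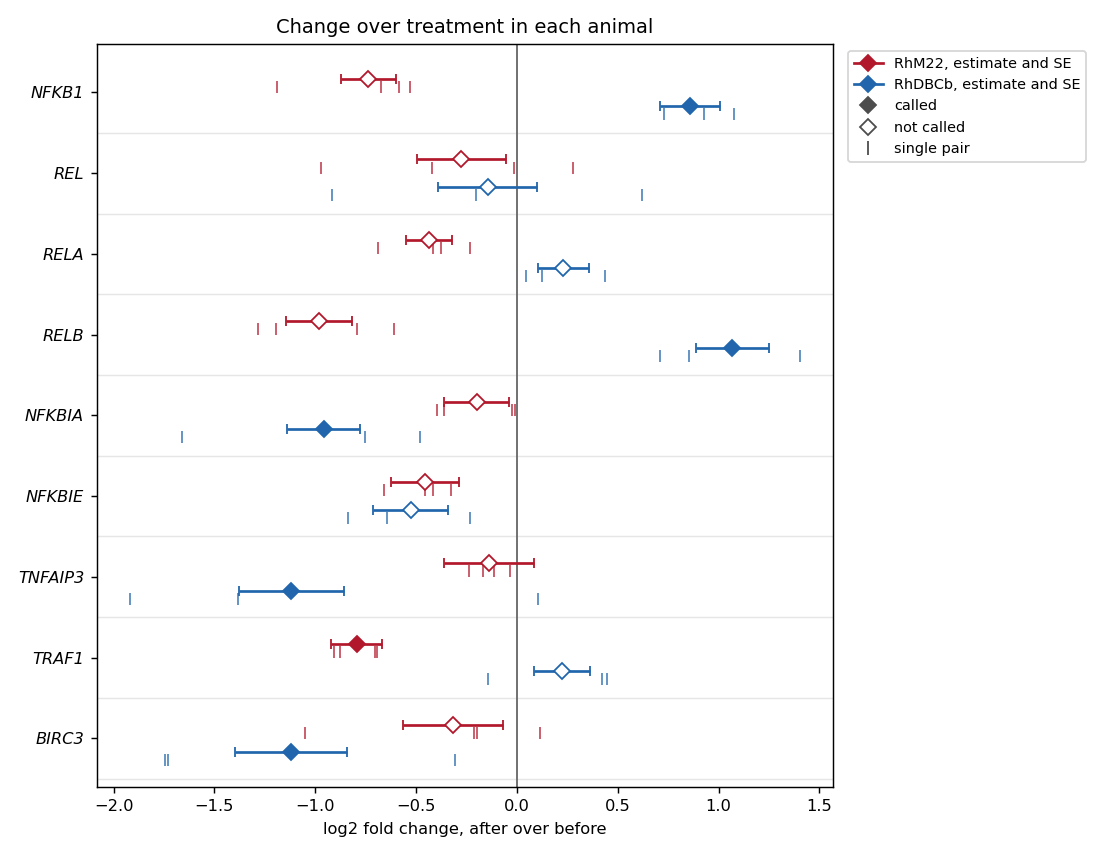
Log2 fold change, after over before, of each member in RhM22 (red) and RhDBCb (blue). Diamonds are the edgeR estimates with their SE, filled where called, and ticks are single before-and-after pairs. NFKB1 and RELB lay at -0.74 and -0.98 in RhM22 and at 0.86 and 1.07 in RhDBCb, while NFKBIA lay at -0.20 and -0.96.

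The inhibitor NFKBIA fell in RhDBCb, where NFKB1 and RELB rose. It fell there by 0.96 (SE 0.18, edgeR adjusted p = 0.00764), with 997, 799.7 and 779 CPM after treatment in CD8 memory, CD4 memory and CD4 naive cells, against 1392, 1675.5, 1347 and 2469.5 CPM before. RhM22 had 787, 654, 563 and 804 CPM after treatment, against 799.7, 841, 567 and 1057 CPM before, where edgeR gave -0.20 (SE 0.16, adjusted p = 0.957). The 2 times did not overlap in RhDBCb and did in RhM22. Of the fits that left out 1 library, 1 lost the fall in RhDBCb, the one lacking its CD4 naive after library (-0.71, adjusted p = 0.0571). The difference between the animals was 0.76 (SE 0.24, adjusted p = 0.0901) and was not called by edgeR. DESeq2 called it (0.75, adjusted p = 0.0365), as did edgeR when RhDBCb's CD8 memory before library was left out (0.90, adjusted p = 0.027). NFKBIE had 39.1, 29.3, 18.1 and 22.9 CPM after treatment in RhM22, against 49.0, 39.0, 24.9 and 36.3 CPM before. In RhDBCb it had 45.0, 27.2 and 38.7 CPM after treatment, against 52.9, 45.4, 48.5 and 60.6 CPM before. Its value was close in the 2 animals, -0.46 (SE 0.17, adjusted p = 0.547) in RhM22 and -0.53 (SE 0.19, 0.0915) in RhDBCb, a difference of 0.07 (SE 0.25, 0.932).

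The feedback genes TNFAIP3 and BIRC3 also fell in RhDBCb. TNFAIP3 had 2707, 521 and 1315 CPM after treatment in the CD8 memory, CD4 memory and CD4 naive cells of RhDBCb, against 2516, 4284, 1967 and 3429 CPM before (log2 fold change -1.12, SE 0.26, edgeR adjusted p = 0.0175). The CD4 pairs lay at -1.92 and -1.38 and the CD8 memory pair at 0.11, RhDBCb has no CD8 naive pair, and a difference between subsets was not tested. In RhM22 it had 2989, 2695, 934 and 1653 CPM after treatment, against 3360.0, 2914, 958 and 1947 CPM before (-0.14, SE 0.23, adjusted p = 1). The 2 times overlapped in both animals.

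BIRC3 had 133, 118 and 157 CPM after treatment in RhDBCb, against 164, 292, 397 and 522 CPM before, with no overlap (-1.12, SE 0.28, adjusted p = 0.0234). In RhM22 it had 81.8, 269, 190.0 and 271 CPM after treatment, against 169.8, 311, 218 and 251 CPM before, which overlapped (-0.32, SE 0.25, 0.941). Both calls in RhDBCb were lost without any 1 of its 4 CD4 libraries. The adjusted p was then between 0.0556 and 0.104 for TNFAIP3 (values -1.08 to -0.87) and between 0.0754 and 0.159 for BIRC3 (-0.96 to -0.93). The difference between the animals' changes was 0.98 (SE 0.34, adjusted p = 0.119) for TNFAIP3 and 0.80 (SE 0.37, 0.245) for BIRC3, neither of them called by edgeR. DESeq2 called the TNFAIP3 difference (0.98, adjusted p = 0.0435), and so did edgeR when RhDBCb's CD8 memory before library was left out (1.31, adjusted p = 0.00297).

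TRAF1, the TNF receptor adaptor, fell in RhM22 by 0.79 (SE 0.13, edgeR adjusted p = 0.0387). It had 46.5, 17.8, 62.5 and 26.0 CPM there after treatment, against 87.2, 28.8, 102 and 47.8 CPM before, lower in 4 of 4 pairs. In RhDBCb it had 68.4, 76.9 and 31.4 CPM after treatment, against 50.3, 19.9, 57.4 and 34.7 CPM before, a value of 0.22 (SE 0.14, 0.347). The large gaps within each draw follow the subsets, as described below. The call in RhM22 is fragile: it held when RhDBCb's before library of CD4 naive or CD8 memory cells was left out and was lost without each of the other 13, at adjusted p between 0.052 and 0.321, with the value between -0.85 and -0.76. DESeq2 kept it, and limma lost it (-0.52, adjusted p = 0.0845).

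Counted by animal, 1 of 9 members was called in RhM22, as lower, where the test called 0.0608% of all genes, all of them lower. All 9 lay below 0 there. In RhDBCb 5 of 9 were called, 2 higher and 3 lower, where 10.1% of all genes were called, 5.49% higher and 4.62% lower. These counts come from a fit to all 15 libraries, and they changed when each animal was fitted alone. Fitted on its own 7 libraries, RhDBCb had 0 members called (NFKB1 0.92, adjusted p = 0.0978, and RELB 0.99, adjusted p = 0.112) and 10 genes in all. RhM22 fitted on its own 8 libraries had 3, TRAF1, NFKB1 (-0.74, adjusted p = 0.0445) and RELB (-0.97, 0.0386), among 61 genes.

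All calls within RhDBCb rest on its single before draw, which differed in other genes too. Of 16 immediate early genes, the first to respond when a cell is stimulated, 5 fell and 2 rose in RhDBCb, with a median of -0.28. JUN (-2.13) and FOS (-1.40) had the smallest adjusted p among those that fell, and DUSP2 (0.88) and EGR1 (1.75) were those that rose. Of all genes 5.49% were called higher and 4.62% lower in RhDBCb. No immediate early gene was called in RhM22, where the test called 0.0608% of all genes. Platelet markers summed to 14.5 to 28.9 CPM after and 3.71 to 5.44 CPM before treatment in RhDBCb, and 9 of 9 tested lay above 0, 3 of them called. Monocyte and dendritic cell markers summed to 9.32 to 36.9 CPM after and 3.85 to 12.7 CPM before, with 11 of 11 above 0 and 1 called, CSF1R. B cell markers summed to 41.4 to 86.8 CPM after and 29.0 to 82.7 CPM before, with MS4A1 (CD20), a defining B cell marker, at most 0.121 CPM after and 0.443 CPM before. Of the 9 B cell markers tested, 4 lay above 0 and none was called, with a median of -0.55 against 0.002 over all genes. The part of these cells or of early stimulation in the members' changes was not tested. Leaving out these 4 before libraries, only RhM22 has pairs, and then RELB (-0.98) and TRAF1 (-0.80) were called as lower, both at adjusted p = 0.0366, among 11 genes.

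**Figure D3:**
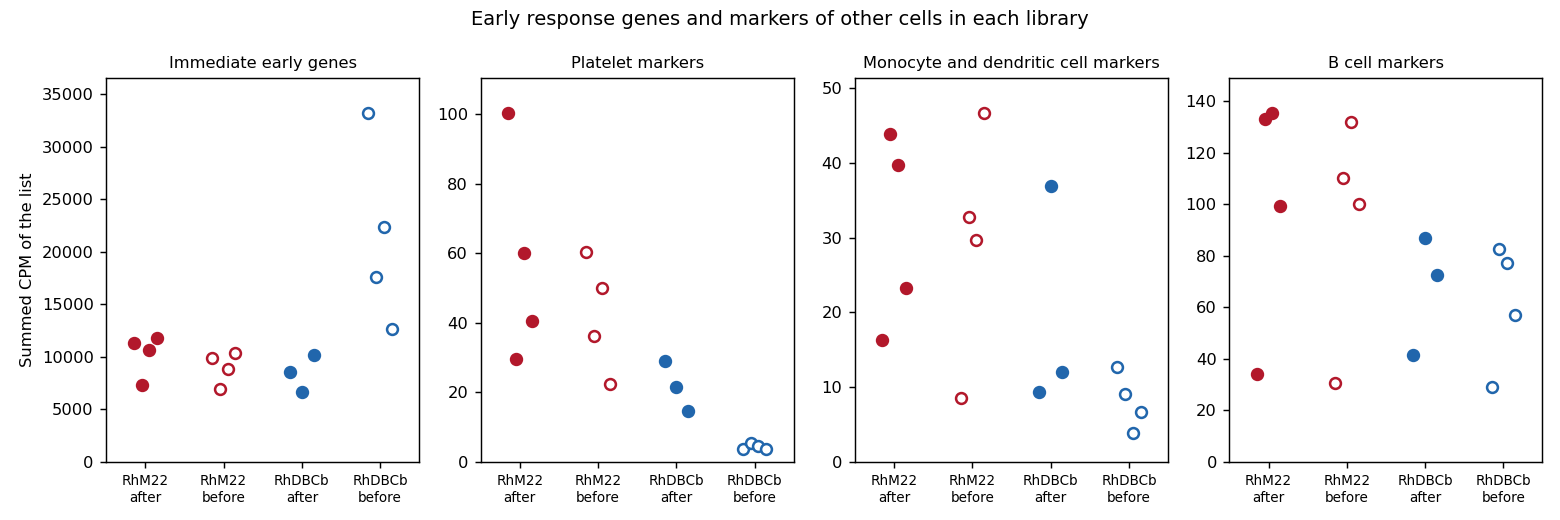
Summed CPM (y axes, from 0) of immediate early genes and of markers of platelets, monocytes and dendritic cells, and B cells in each library, by animal and time. Each circle is 1 library, filled after and open before treatment. The 4 before libraries of RhDBCb lie at 12639 to 33206 CPM for immediate early genes, above the other 11, and at 3.71 to 5.44 CPM for platelet markers, below them.

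The members were next compared between the 4 subsets over both times, with time and animal in the model. Memory cells held more TRAF1 than naive cells in both lineages. CD8 memory cells held more TNFAIP3, REL and NFKBIE than CD4 memory cells. With all 15 libraries edgeR called no subset contrast for NFKB1, RELA, RELB or NFKBIA.

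In CD4 memory over CD4 naive cells 1 of 9 members was called, TRAF1, as higher, where 8.38% of all genes were called, 5.22% as higher. TRAF1 averaged 74.7 ± 20.0 CPM in CD4 memory (SD, n = 4) and 34.9 ± 9.26 CPM in CD4 naive cells (n = 4), with no overlap, and its log2 fold change was 1.11 (SE 0.23, edgeR adjusted p = 0.00687). It was higher in memory cells in 4 of 4 draws and in 15 of 15 fits without 1 library. TNFAIP3 averaged 1095 ± 615 CPM in CD4 memory and 2086 ± 932 CPM in CD4 naive cells, lower in 4 of 4 draws, and did not pass (-0.94, SE 0.29, adjusted p = 0.0557). Without the CD4 memory before (0.016), CD8 memory before (0.041) or CD4 naive after library (0.0475) of RhDBCb it did. DESeq2 called it (adjusted p = 0.0131), and so did edgeR when RhDBCb's 4 before libraries were left out (-1.03, adjusted p = 0.000961). NFKBIA lay at -0.60 (SE 0.21, adjusted p = 0.102), and the members' median was -0.28 against -0.03 over all genes. B cell markers summed to 82.7 to 133 CPM in CD4 memory and 29.0 to 41.4 CPM in CD4 naive libraries. Single markers were mixed: 4 of 9 tested lay above 0, with a median of -0.42 against -0.03 over all genes. BLK and CR2 were called higher and 0 were called lower. MS4A1 was at most 1.49 CPM in CD4 memory and 0.53 CPM in CD4 naive libraries, and 0 in some of each. Their part in the TRAF1 difference was not tested.

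In CD8 memory over CD8 naive cells 2 of 9 members were called, 1 higher and 1 lower, where 13.5% of all genes were called, 8.1% higher and 5.39% lower. TRAF1 averaged 63.1 ± 18.7 CPM in CD8 memory (n = 4) and 22.2 ± 5.82 CPM in CD8 naive cells (n = 3), which edgeR put at 1.61 on the log2 scale, SE 0.26 (adjusted p = 0.000925). The subsets did not overlap, and 15 of 15 fits without 1 library kept the call. B cell markers summed to 56.8 to 99.9 CPM in CD8 memory and 77.1 to 135 CPM in CD8 naive libraries. Of 9 tested, 2 were called higher and 1 lower, and 5 lay above 0. Their median was 0.08 against 0.03 over all genes, and their part in the TRAF1 difference was not tested. Natural killer markers summed to 38.8 to 90.7 CPM in CD8 memory and 12.1 to 25.7 CPM in CD8 naive libraries. All 7 tested lay above 0 and 3 were called higher. Their part in the differences of this contrast was not tested. BIRC3 was lower, at 137 ± 40.3 CPM in CD8 memory and 290.3 ± 21.1 CPM in CD8 naive cells with no overlap (-1.06, SE 0.31, adjusted p = 0.0343). Its call was lost when RhDBCb's CD8 memory before library was left out (0.0803), or without the CD8 naive before (0.056), CD8 memory before (0.0773), CD8 naive after (0.217) or CD8 memory after library (0.0863) of RhM22. The fit without animal in the model gave -1.02 and lost it too.

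**Figure D4:**
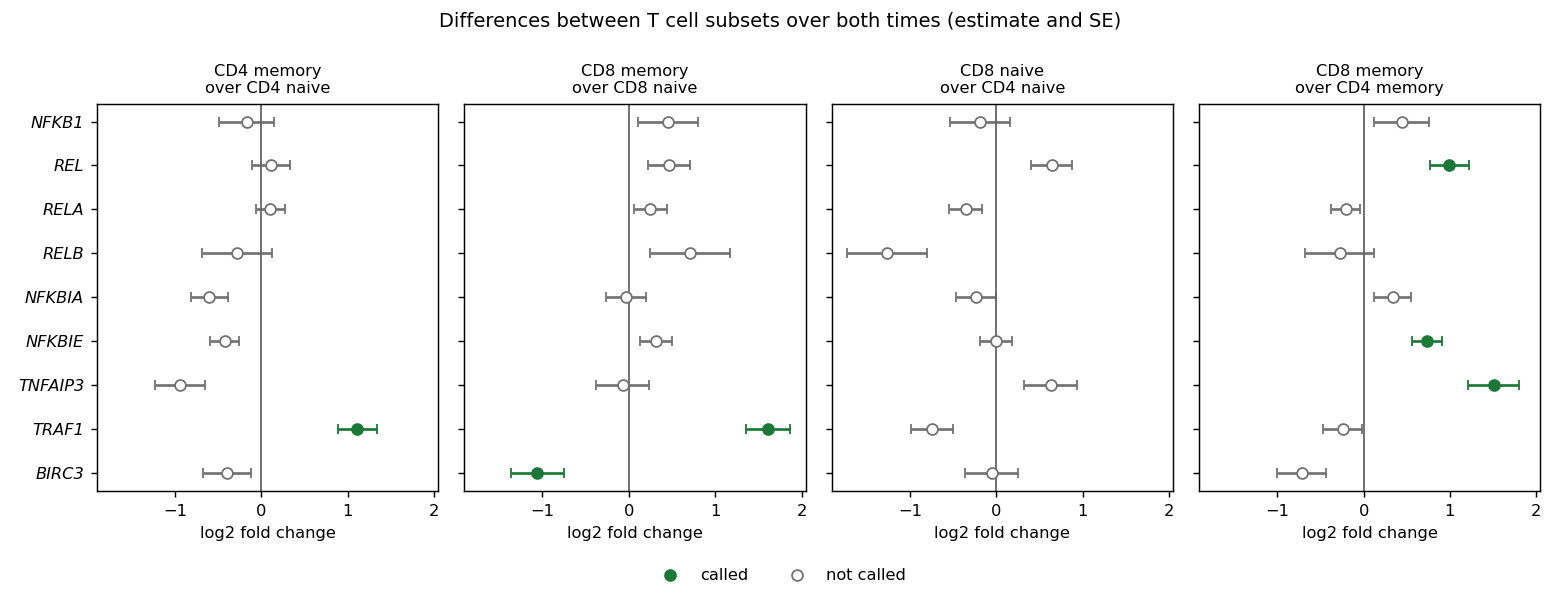
Log2 fold change with SE (edgeR) of each member for 4 contrasts between T cell subsets over both times, filled green where called. TRAF1 lay at 1.11 and 1.61 in memory over naive cells of the CD4 and CD8 lineage, and TNFAIP3, REL and NFKBIE at 1.51, 0.99 and 0.74 in CD8 memory over CD4 memory cells.

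In CD8 memory over CD4 memory cells 3 of 9 members were called, all higher, where 6.35% of all genes were called, 3.76% as higher. TNFAIP3 averaged 2893 ± 367 CPM in CD8 memory and 1095 ± 615 CPM in CD4 memory cells (n = 4 each), with no overlap and a log2 fold change of 1.51 (SE 0.29, edgeR adjusted p = 0.00568). All 15 fits without 1 library kept it. REL averaged 128 ± 57.4 CPM in CD8 memory and 65.2 ± 23.8 CPM in CD4 memory cells, higher in 4 of 4 draws although the ranges overlapped (0.99, SE 0.22, 0.0131). NFKBIE averaged 46.5 ± 5.92 CPM in CD8 memory and 29.7 ± 13.1 CPM in CD4 memory cells, also higher in 4 of 4 draws with overlapping ranges (0.74, SE 0.17, 0.0181).

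The REL and NFKBIE calls were close to the threshold. REL was lost without the CD4 memory after (adjusted p = 0.0502) or CD8 memory after library (0.055) of RhDBCb, or RhM22's CD8 memory before library (0.0639). NFKBIE was lost without the CD4 memory after library of RhDBCb (0.0563) or the CD4 memory before (0.0666), CD8 memory before (0.0513) or CD4 memory after library (0.0682) of RhM22. Without animal in the model 1 of the 3, TNFAIP3, remained called, with REL at 0.97 and NFKBIE at 0.69. Leaving out RhDBCb's 4 before libraries kept all of the subset calls named above. Natural killer markers summed to 38.8 to 90.7 CPM in CD8 memory and 6.38 to 9.16 CPM in CD4 memory libraries, with KLRF1 at 19.1 to 61.9 and 0.0455 to 0.265 CPM. Their part in these differences was not tested.

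In CD8 naive over CD4 naive cells edgeR called 0 of 9 members, where 2.79% of all genes were called, and DESeq2 and limma also called 0. REL (0.64, SE 0.24), RELB (-1.27, SE 0.46) and TRAF1 (-0.74, SE 0.25) were at an unadjusted p under 0.05, against 12.1% of genes. RELB averaged 56.1 ± 45.6 CPM in CD8 naive (n = 3) and 110.1 ± 65.3 CPM in CD4 naive cells (n = 4), and the ranges overlapped. Leaving out RhDBCb's 4 before libraries, edgeR called 2 members, RELB (-0.90, adjusted p = 0.0224) and TNFAIP3 (0.66, adjusted p = 0.0498). Whether memory and naive cells differ by more in the CD8 than in the CD4 lineage was tested directly. No member was called by edgeR, DESeq2 or limma, where edgeR called 0.0405% of all genes, and 1 member, NFKBIE (0.74, SE 0.25), was at an unadjusted p under 0.05, against 6.8% of genes. Leaving out the same 4 libraries, edgeR called TNFAIP3 (1.29, adjusted p = 0.045).

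By mean level over subsets, TRAF1 ran CD4 memory, CD8 memory, CD4 naive, CD8 naive, and the 2 memory means (74.7 ± 20.0 and 63.1 ± 18.7 CPM) differed by less than their SD while the other neighbours differed by more. TNFAIP3 ran CD8 naive (3298 ± 861 CPM), CD8 memory, CD4 naive, CD4 memory, with the means of the 2 CD8 subsets within their spread. The CD8 naive means lack RhDBCb's draw after treatment, and in the 3 draws that have both subsets TNFAIP3 was higher in CD8 memory than CD8 naive cells in 2. REL ran CD8 memory, CD8 naive (103 ± 31.4 CPM), CD4 memory, CD4 naive (58.8 ± 17.1 CPM), with neighbours within their spread inside each lineage. NFKBIE ran CD8 memory, CD4 naive (39.6 ± 15.6 CPM), CD8 naive (37.9 ± 8.15 CPM), CD4 memory, and BIRC3 ran CD4 naive (300.3 ± 156 CPM), CD8 naive, CD4 memory (231 ± 118 CPM), CD8 memory, each with neighbours within their spread. NFKB1, RELA, RELB and NFKBIA differed between neighbours by less than the spread within a subset. Levels were not compared between members. The gene lengths behind the deposited FPKM values are not given, and those the values imply run from 3.04 kb for NFKBIA to 115 kb for NFKB1.

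The rest of the pathway was followed in 6 lists. Over both animals and all subsets no gene of any list was called. The medians of the list of IKK and upstream kinases (12 tested) and of the adaptor list (12) were -0.02 and -0.17. Beside TRAF and other adaptors, the adaptor list holds kinases such as IRAK1. Other inhibitors and deubiquitinases (14) lay at -0.12, linear ubiquitin and IAP ligases (6) at 0.13, TNF superfamily ligands and receptors (15) at 0.05 and other reported NF-kB targets (19) at -0.13, against 0.01 over all genes.

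Between the animals 7 list genes were called, where the test called 4.58% of all genes. Among other inhibitors 1 of 14 was higher and 2 lower in RhM22's change minus RhDBCb's: ZC3H12A, an RNase of inflammatory transcripts (-1.74, SE 0.19, edgeR adjusted p = 0.000813), BCL3, an atypical IkB protein (-1.84, SE 0.36, 0.0139), and COMMD1 (1.08). TNFRSF1B, the second TNF receptor (-1.38, SE 0.21), was 1 of 15 called in its list, and RBCK1, a subunit of the linear ubiquitin ligase (-1.45), 1 of 6. The adaptors TRAF5 (0.85) and TRAF6 (0.95) were 2 of 12, both higher. No kinase and no other target gene was called.

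In RhDBCb, where 10.1% of all genes were called (5.49% higher, 4.62% lower), 2 inhibitors rose, ZC3H12A by 1.15 and NFKBID by 3.17, and 3 fell, COMMD1 and NKIRAS1 with the smallest adjusted p. Of the TNF superfamily 3 of 15 rose, TNFRSF1B (1.17) and TNFSF8 (0.90) leading, and 0 fell. The list as a whole was not raised: 7 of 15 lay above 0, with a median of -0.39 against 0.002 over all genes. TRAF6 (-1.05), TRAF5 (-0.79) and BCL10 were the 3 of 12 in the adaptor list that fell. TBK1 (-0.87) was the 1 gene of the kinase list that fell, and among ligases RBCK1 rose (1.35) and BTRC fell (-0.78). The 19 other targets had 0 called. RhM22 had 0 list genes called, where the test called 0.0608% of all genes.

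Between subsets the TNF superfamily had the most genes called higher of the 6 lists in memory over naive cells. Of all genes 8.1% were called higher and 5.39% lower in CD8 memory over CD8 naive cells. In CD4 memory over CD4 naive cells 8.38% of all genes were called, 5.22% as higher. In CD8 memory over CD8 naive cells 8 of 15 were higher and 1 lower (median 1.43 against 0.03 over all genes), TNFSF14 (3.13, SE 0.51, edgeR adjusted p = 0.00117) and CD70 (3.21, SE 0.57, 0.00195) first and LTA (-1.23) lower. In CD4 memory over CD4 naive cells 5 of 15 were higher and 0 lower (median 1.02), led by TNFSF14 (3.60) and CD70 (3.41). Other NF-kB targets were higher for 7 of 19 in CD8 memory over CD8 naive cells, CXCR5 (2.65) and ICOS (1.32) first, and 2 higher and 4 lower in CD4 memory over CD4 naive cells, with CXCR5 (1.85) higher and CD83 (-1.32) lower.

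In CD8 naive over CD4 naive cells, where 2.79% of all genes were called, 1 of 15 TNF superfamily genes was higher, TNFSF14 (2.97). In that list 2 were lower, CD40LG (-5.92) and TNFRSF4 (-3.27). Of the other targets 1 of 19 was higher there, CCL5 (5.51), and 5 lower, CXCR5 (-3.12) and ICOS (-1.56) first.

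MAP3K8, a kinase that the NFKB1 precursor binds, was higher in each of the 4 contrasts: CD4 memory over CD4 naive (1.52, SE 0.32), CD8 memory over CD8 naive (2.27, SE 0.36), CD8 naive over CD4 naive (1.80, SE 0.34) and CD8 memory over CD4 memory cells (2.56, SE 0.32). Of the 12 kinases 3 were called higher in CD8 memory over CD8 naive cells and 1 in each of the other contrasts. Other inhibitors had 4 of 14 higher and 1 lower in CD8 memory over CD8 naive cells, where 8.1% of all genes were called higher and 5.39% lower. TNIP1 (0.98) and TNIP2 (1.27) were higher there and NKIRAS1 (-1.29) lower. In the CD4 lineage 1 of 14 was higher, TNIP2 (0.87), against 5.22% of all genes. In CD8 memory over CD4 memory cells 6.35% of all genes were called, 3.76% as higher. Beside TNFAIP3, the inhibitors ZC3H12A (1.29) and TNIP3 (3.21) were higher in that contrast and NKIRAS1 (-1.73) lower. There 7 of 19 other targets were higher, CCL5 (5.39) and CD83 (1.56) first, and 2 lower, CXCR5 (-2.33) and ICOS (-0.67). In the adaptor list 2 of 12 genes were higher there, the kinase IRAK1 (1.07) being 1 of them, and no ligase was called in any of the 4.

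Across the 15 libraries RELA and RELB levels ran together (Pearson r = 0.89 on log2 CPM), as did NFKB1 and RELA (0.79) and the inhibitors NFKBIA and NFKBIE (0.78), while NFKB1 and NFKBIA ran opposite (-0.66). These are descriptions over libraries that share 4 draws. The 5 genes whose log2 CPM was most like the mean of the members' standardized levels, of 8281 compared, were SCAF11 (r = 0.85), CNOT2 (0.81), RO60 (0.81), TRANK1 (0.79) and HSP90B1 (0.78). Since some members ran opposite to each other, such as NFKB1 and NFKBIA, this mean does not follow each member.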

How the data were processed

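Per the labels, SMART-Seq v4 kits turned polyadenylated RNA into unstranded libraries, so reads of a gene and an antisense partner cannot be told apart. The authors deposited expected counts per gene, unscaled, and FPKM values. The submitters' processing notes name cutadapt 1.18, STAR 2.7.6a, RSEM 1.3.3 and the builds Mmul_10 and rheMac10. Expected counts were rounded, with library totals shifting by 26.1 or less. PCR copies cannot be told from molecules, so a count's error exceeds counting error.

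Genes were filtered with filterByExpr by subset and time (minimum count 10), scaled with TMM and tested with edgeR 4.0.16 (quasi-likelihood F test, R 4.3.3) with the animal as a block. P was adjusted by Benjamini-Hochberg over 14814 genes. SE is the absolute log2 fold change divided by the square root of F. DESeq2 1.42.0 and limma 3.58.1 on log2(FPKM + 1) were alternatives. Where FPKM is low, the added 1 makes limma's log2 changes smaller. RELB, at 0.44 to 4.96 FPKM, lay at -0.67 in RhM22 with limma and -0.98 with edgeR. Scripts were tested on simulated counts. Samples pair by animal name in the labels. Deviations of before and after libraries of an animal correlated across genes (CD4 naive 0.317, CD4 memory 0.445, CD8 memory 0.296).

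The members, lists and comparisons were chosen with earlier results of these data known. All members were named, and from each list up to 2 genes per direction with the smallest adjusted p. JUN, FOS, DUSP2, EGR1 and CSF1R follow that rule, and BCL10 and LTA complete small counts. A few list genes are not reported here, and all fits and counts keep them.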

Additional observations from a re-analysis of the deposited data

Results flagged for a closer look

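In 4 members the change over treatment differed between the animals by a test of the difference itself. RhM22's log2 change minus RhDBCb's was -2.05 for RELB, -1.60 for NFKB1, -1.02 for TRAF1 and -0.66 for RELA. Each gene was lower after treatment in 4 of 4 pairs of RhM22. NFKB1, RELA and RELB were higher in 3 of 3 pairs of RhDBCb, and TRAF1 in 2 of 3. Each animal gave 1 draw per time, so an animal's response and the particulars of a draw cannot be told apart.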

How the results depend on the processing

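Of 1156 alternative values over 55 results for single members, 1037 kept direction and side of the threshold, 69 lost a call, 26 gained one and 24 turned direction. The members called over both animals numbered 1 in DESeq2 and 2 without the 4 before libraries of RhDBCb, against 0. For CD4 memory over CD4 naive cells they numbered 2 in DESeq2, 2 without those 4 libraries, 0 in the before and 0 in the after libraries alone, against 1. For CD8 memory over CD8 naive cells they were 1 with limma, 1 in the before and 0 in the after libraries, against 2. CD8 memory over CD4 memory cells had 0 in the before and 1 in the after libraries, against 3. Without the 4 libraries, CD8 naive over CD4 naive cells had 2, and the CD8 minus CD4 difference in memory over naive 1, against 0 each. RhDBCb had 6 in DESeq2, 3 with limma and 0 alone, against 5, and the difference between the animals 6 in DESeq2, against 4. RhM22 had 2 without the filter, 4 in DESeq2, 2 without the 4 libraries and 3 alone, against 1. With limma it also had 1, but this was RELB in place of TRAF1.

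The fit with no replicate block called 1 member in each of CD8 memory over CD8 naive and CD8 memory over CD4 memory cells, and no other count moved without that pairing. With 1 library left out, counts ran from 1 to 3 for CD4 memory over naive, 1 to 2 for CD8 memory over naive, 1 to 3 for CD8 over CD4 memory, 3 to 6 between the animals, 2 to 6 for RhDBCb and 0 to 2 for RhM22. Values that turned direction were NFKB1 (-0.16 to 0.12) and RELB (-0.20 to 0.13) over both animals, REL (-0.41 to 0.14) and NFKBIE (-0.091 to 0.204) between the animals, and REL in RhDBCb (-0.44 to 0.13). The cause of these shifts was not tested. Genes called in all ran from 99 to 1320 between the animals (679 with all libraries) and from 224 to 2178 in RhDBCb (1499).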
